A study of Homo sapiens with 18 samples.

Results

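WDR5 knockdown was examined in BoM, a bone-metastatic subline of MDA-MB-231, an established line from a human breast cancer that lacks hormone receptors and HER2. The 6 BoM libraries (3 shCtrl and 3 shWDR5) were taken by the titles of the deposited samples, out of 18 libraries in all. The other 12 libraries came from the lung-metastatic LM2 and brain-metastatic BrM3 sublines, which carried the same hairpins, and entered the same fit. All BoM cells carried a lentiviral pINDUCER10 vector from which doxycycline (DOX) induced a hairpin (shWDR5-1, or shCtrl as the control), and all were grown with DOX at 1 μg/mL for 3 days, so the shCtrl cells were also exposed to DOX. The replicates of each group came from different passages of a single subline, and only 1 WDR5 hairpin was sequenced. Gene expression was measured by RNA-seq of stranded mRNA libraries as the number of reads counted on each gene. Of 58815 genes, 12095 had enough counts to be tested in the 18 libraries.

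WDR5 is a WD40-repeat protein that bridges the subunits of the KMT2 (MLL/SET1) complexes, which methylate lysine 4 of histone H3 at promoters and enhancers. It is also a subunit of the NSL and ATAC histone acetyltransferase complexes and a partner of the transcription factor MYC. Genes for ribosomal proteins are among the best known sites of WDR5 binding.

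The sequences of the WDR5 hairpins are shown because they define what was knocked down. The supplementary oligo list of the study holds 2 hairpin target sites for WDR5, and it was not stated in the sources used here which of them is shWDR5-1. Both 19-base sites lie in the coding sequence of WDR5 (ENSG00000196363), on chromosome 9 of GRCh38, in the transcript WDR5-201, whose coding part runs from base 178 to base 1182 of 3157. The first, at chr9:134156564-134156582 on the plus strand, covers bases 1052 to 1070 in exon 13 of 14. The second, at chr9:134157903-134157921, covers bases 1092 to 1110 in exon 14. Both are printed whole, 5′ to 3′ on the plus strand.
V3LHS_330806: agattgtacagaaactaca
V2LHS_140181: ctcaacagcttgtcaccca
The first site had a full match in transcripts of 0 other genes and at least 2 mismatches to WDR5B, the closest relative of WDR5. The second matched 1 other gene, a transcribed pseudogene, and had at least 3 mismatches to WDR5B. Each site was found in 1 of the 3 annotated WDR5 transcripts, and reads were counted over the whole gene.

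WDR5 itself fell to 21.3% of its control level. Its normalised CPM (its count scaled by the TMM-normalised library size) was 87.5, 90.5 and 90.4 in shCtrl replicates 1 to 3 and 14.0, 21.1 and 22.1 in shWDR5 replicates 1 to 3. The groups did not overlap, and shWDR5 replicate 1 had the lowest level. The log2 fold change of shWDR5 over shCtrl was -2.24 (SE 0.14, adjusted p = 6.2e-08, edgeR's quasi-likelihood test with Benjamini-Hochberg adjustment over the 12095 genes), and it lay between -2.36 and -2.05 when each BoM library was left out in turn. WDR5B did not pass the threshold of an adjusted p under 0.05, with 8.19, 7.5 and 8.77 CPM in shCtrl against 7.38, 5.85 and 7.81 in shWDR5.

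The BoM libraries held 20064987 to 38697099 counts on genes, and shCtrl replicate 3 was the shallowest. Markers of MDA-MB-231 fitted its label in part. Of 8 genes listed as high, VIM, CD44, EGFR, MSN, AXL, CAV1 and PLAU had at least 75.8 CPM in every library and TGFBI 6.12 to 15.7. Of 8 listed as low, ESR1, PGR, CDH1 and FOXA1 stayed under 1 CPM in all 6 libraries, while EPCAM reached 5.61 to 10.1 CPM, GATA3 7.35 to 9.07, ERBB2 41.5 to 65.4 and the keratin gene KRT18 278 to 338. Markers of cells that share the bone with such tumors were mostly under 1 CPM. The summed CPM of 9 osteoblast and osteoclast markers was 2.95 to 3.78 in shCtrl and 2.44 to 2.85 in shWDR5, and that of 10 blood cell markers was 2.62 to 3.55 and 2.09 to 2.48, with MS4A1 at 0 in all 6. For 9 endothelial and adipocyte markers it was 9.87 to 12.6 and 10.4 to 15.7, with ADIPOQ and LEP at 0. Most of that sum came from the endothelial markers KDR (5.541 to 10.25 CPM) and PECAM1 (2.267 to 4.295 CPM). In such bulk samples, fewer cells of a state and less RNA per cell cannot be told apart.

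At an adjusted p under 0.05, 655 genes (5.42% of those tested) were higher and 1297 (10.7%) were lower in shWDR5. The 2 sets differed in more than direction. The lower genes were expressed at a low level, with a median of 9.07 CPM against 66.1 for the higher genes and 30.04 for all tested genes, and their changes were larger, with a median log2 fold change of -0.68 against 0.44. A change of at least 1 on the log2 scale was reached by 280 lower and 18 higher genes. The lower genes were also richer in GC, with a median of 51.7% of transcript bases against 43.0% for the higher genes and 47.1% for all. The trend with GC content differed between libraries as well, with overlap between the groups. The correlation of a library's deviation with GC content across genes was -0.20, 0.15 and -0.28 in shCtrl and -0.41, -0.25 and -0.25 in shWDR5. With offsets that took out the trend with GC content in each library, 1878 genes (15.5%) were higher and 1534 (12.7%) lower, so the excess of lower genes turned into an excess of higher ones. Offsets for transcript length did the same, with 1443 higher and 1252 lower. Both kinds of offset raised the median log2 fold change of all genes, from 0.02 to 0.06.

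**Figure D1:**
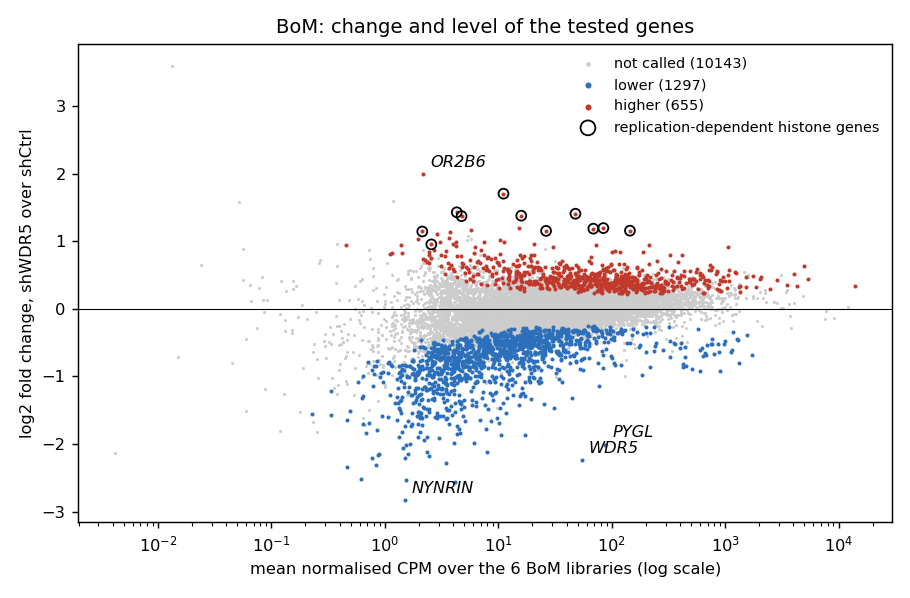
Each point is 1 of the 12095 tested genes in BoM, with its mean normalised CPM over the 6 libraries on a log axis against its log2 fold change of shWDR5 over shCtrl. The 1297 genes called lower (blue) reach further from 0 than the 655 called higher (red), and the 11 replication-dependent histone genes (circles) all lie above 0.

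The counts of 655 and 1297 genes come from a fit that did not pair the replicates. With the replicate number as a block, 1368 genes (11.3%) were higher and 1818 (15%) lower. These included 654 of the 655 and 1293 of the 1297 genes called without it. All 3 shWDR5 libraries lay above all 3 shCtrl libraries for 1555 genes (12.9%) and below them for 2094 (17.3%). This held for 609 of the genes called higher and 1272 of those called lower. Leaving out shCtrl replicate 2, the library with the highest GC correlation, lowered the number of higher genes to 247 and that of lower genes to 927. Over the 6 fits that left out 1 BoM library, 247 to 773 of all tested genes were higher and 927 to 1206 lower. Numbers of list members in those fits are to be read against these totals. Called in every fit that left out 1 BoM library were 175 higher and 730 lower genes, and the genes described next belong to these unless stated otherwise.

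The genes with the smallest p in each direction, among those with at least 10 CPM, are described here. Groups that do not overlap are likely by that choice. They were found in 609 of the 655 higher and 1272 of the 1297 lower genes. PYGL (glycogen phosphorylase L, which releases glucose from glycogen) had 129, 140 and 154 CPM in shCtrl and 32.1, 36.1 and 37.1 in shWDR5. Its groups lay far apart, with a log2 fold change of -2.01 (SE 0.09, adjusted p = 1.2e-09, edgeR), and its p was the smallest of all tested genes, followed by that of WDR5. CTSF, a lysosomal cysteine protease, went from 16.9, 17.7 and 14.8 to 5.15, 4.38 and 4.04 CPM. TMEM25, which encodes a membrane protein, went from 15.1, 16 and 14.9 to 4.94, 6.36 and 5.39. Neither gene had a shWDR5 library within the range of its shCtrl libraries, and their log2 fold changes were -1.86 and -1.47. In the other direction, SATB1, an organiser of chromatin loops, rose from 13.1, 11.3 and 12.6 to 24.4, 20.1 and 19.0 CPM (log2 fold change 0.78, SE 0.11, adjusted p = 1.2e-04, edgeR). The remaining genes with the smallest p for a rise were histone genes.

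**Figure D2:**
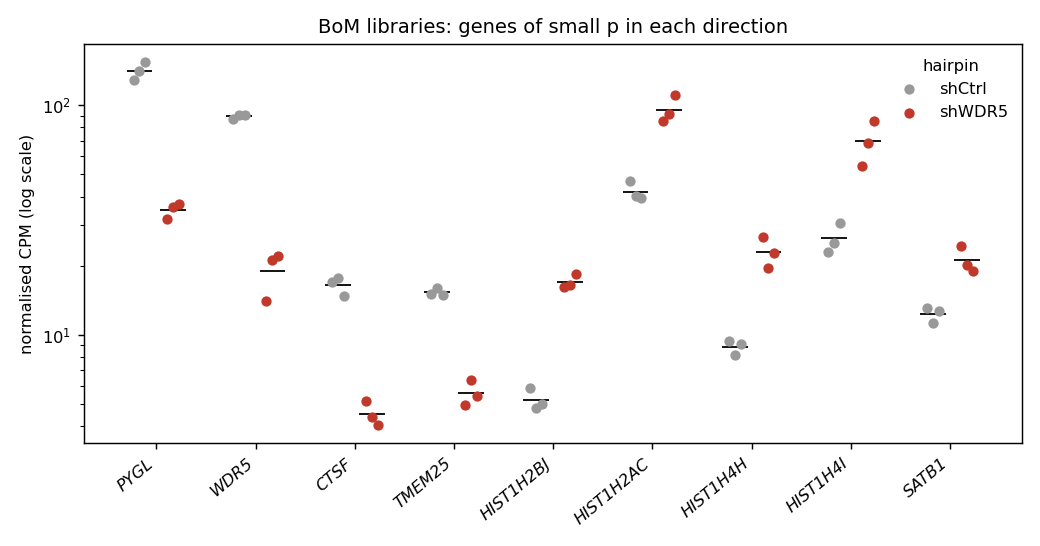
Normalised CPM (log axis) of 4 lower and 5 higher genes, from those with the smallest p in each direction among genes with at least 10 CPM, with 1 point per BoM library and a line at the mean of 3. In each gene the 3 shWDR5 libraries lie outside the range of the 3 shCtrl libraries, as they do in most called genes.

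The largest falls were found in genes of low level. NYNRIN had the largest, with 2.38, 2.90 and 2.62 CPM in shCtrl and 0.456, 0.271 and 0.346 in shWDR5, where it was seen with as few as 7 counts. Its log2 fold change was -2.83 (SE 0.19, adjusted p = 1.2e-07, edgeR). DMKN, which encodes the secreted epidermal protein dermokine, had 4.41, 6.61 and 10.3 CPM in shCtrl and 0.322, 0.853 and 2.54 in shWDR5 (log2 fold change -2.56, SE 0.50). In both groups replicate 3 was the highest and replicate 1 the lowest, and the adjusted p was 0.0023 without and 2.9e-05 with the replicate block (edgeR). On the log2 scale, HOOK1, which links cargo to microtubules, fell by 2.53. SPINT1, an inhibitor of cell surface serine proteases, fell by 2.21, and DMTN, which bundles actin, fell by 2.30. HLA-DPB1, a chain of an MHC class II receptor, fell by 2.34 and IFNLR1, the receptor of interferon lambda, by 2.20. The mucin gene MUC5B (log2 fold change -2.52, SE 0.60) lost its call without shCtrl replicate 2, at an adjusted p of 0.067 (edgeR), and its 65 counts there stood against 2 in the lowest library. HLA-DPB1 and DMTN had as few as 3 counts in a library, so the size of these falls is imprecise.

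The most abundant genes called included genes of protein synthesis in both directions. EEF1A1, the elongation factor that brings tRNAs to the ribosome, had 12179, 11812 and 13365 CPM in shCtrl and 14777, 16876 and 15355 in shWDR5, a log2 fold change of 0.33 (SE 0.10, adjusted p = 0.031, edgeR). That call rested on single libraries and was lost in 3 of the 6 fits that left out 1, with the highest adjusted p of 0.12 without shCtrl replicate 2. The chaperone gene HSP90AB1 (log2 fold change 0.45), the mitochondrial ribosomal RNA MT-RNR2 (0.64) and the nucleolar NPM1 (0.33) were also higher in all 3 shWDR5 libraries than in any shCtrl library. RPS18, RPL6 and RPL7A were among the most abundant genes called lower. IGFBP4, which binds insulin-like growth factors, was called lower as well (log2 fold change -0.46, SE 0.12, adjusted p = 0.013, edgeR), but at 0.062 without shCtrl replicate 2.

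Every tested gene for a replication-dependent histone was higher after WDR5 knockdown. These genes encode the bulk histones of S phase, and their mRNAs mostly end in a stem-loop rather than a poly(A) tail. Only 11 of the 66 listed members had enough counts to be tested, and passing that filter depended on the higher group too. The libraries were made from mRNA, and which forms of these transcripts they captured was not tested. All 11 were called higher, where 5.42% of all tested genes were, and their median log2 fold change was 1.19 against 0.02 for all genes. With GC content removed 11 of 11 were called again, where 15.5% of all genes were.

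HIST1H2BJ, an H2B gene, had the largest rise of the 11, from 5.86, 4.81 and 4.99 CPM in shCtrl to 16.2, 16.5 and 18.4 in shWDR5. Its log2 fold change was 1.70 (SE 0.13, adjusted p = 3.3e-07, edgeR). HIST1H2AC, an H2A gene, rose from 46.7, 40.1 and 39.3 to 85.5, 91.4 and 110 CPM (log2 fold change 1.18, SE 0.12). The H4 genes HIST1H4H and HIST1H4I behaved alike. HIST1H4H went from 9.40, 8.13 and 9.12 to 26.8, 19.6 and 22.8 CPM, and HIST1H4I from 23.0, 25.1 and 30.7 to 54.2, 68.6 and 85.8. Their log2 fold changes were 1.38 (SE 0.14) and 1.41 (SE 0.16), and the groups of neither overlapped. The H2B genes HIST1H2BC (1.43), HIST2H2BE (1.37) and HIST1H2BK (1.19) also rose. Of the transcript of HIST1H2BK, 57.2% of the 50-base stretches are shared with other genes, so its count is uncertain. The other 4, named after their values were seen, were HIST1H2BD, HIST1H1C, HIST1H2BN and HIST1H2BO, with log2 fold changes from 0.95 to 1.15. HIST1H2BO, the least expressed, was called in 4 of the 6 fits that left out a BoM library, and the other 10 in all 6. Summed over the 11 tested members, the level was 252, 275 and 215 CPM in shCtrl and 474, 566 and 696 in shWDR5. The highest sum was that of shWDR5 replicate 3, and the groups were far apart.

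The histone stem-loops are shown to tell the histone-type 3′ ends from longer transcripts that reach a poly(A) site. Of the 11 tested genes, 10 carry in GENCODE a 16-base stem-loop after the stop codon. The capitals mark the loop.
HIST1H2BJ: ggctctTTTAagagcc
HIST1H2AC: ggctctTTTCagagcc
HIST1H4H: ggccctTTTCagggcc
In HIST1H4H, HIST1H2AC and HIST2H2BE an annotated transcript runs at least 100 bases past the stem-loop, by up to 1655, 1128 and 1729 bases. HIST1H2BJ, HIST1H2BC and HIST1H2BN have 3 annotated coding transcripts each and HIST1H2BD 2, of which 1 carries the stem-loop. HIST1H1C, HIST1H2BK and HIST1H2BO have a single one, which ends 4 to 6 bases after the stem-loop, and they rose by 1.15, 1.19 and 1.14 on the log2 scale. HIST1H4I had no match to the stem-loop. Which 3′ ends the reads came from was not tested.

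The promoters of the 11 genes, from 250 bases before to 50 after the start in RefSeq, were searched on both strands for CCAAT, the box bound by NF-Y, and for TATAAA. The promoters of HIST1H2AC and HIST1H2BJ, the histone genes with the smallest p, are printed. CCAAT was found in 10 of 11 (90.9%), against 35.7% of all 27305 RefSeq promoters and 37.1% of those of tested genes. TATAAA was found in 7 of 11 (63.6%), against 12% of all and 5.35% of tested genes. Promoters of the listed histone genes that were not tested were not counted for comparison. A link of either motif to the rise was not tested. The capitals mark CCAAT or its complement ATTGG, and TATAAA or its complement TTTATA. In HIST1H2BJ a TTTATA overlaps a TATAAA. HIST1H2AC lies on the plus strand at chr6:26123922-26124221 and HIST1H2BJ on the minus strand at chr6:27132746-27133045 (GRCh38.p14).
HIST1H2AC: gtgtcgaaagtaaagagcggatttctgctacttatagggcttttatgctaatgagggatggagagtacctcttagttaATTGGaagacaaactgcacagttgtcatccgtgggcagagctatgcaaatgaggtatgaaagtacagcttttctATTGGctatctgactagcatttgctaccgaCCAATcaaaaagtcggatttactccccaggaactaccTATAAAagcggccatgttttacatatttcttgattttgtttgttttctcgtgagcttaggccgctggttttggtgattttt
HIST1H2BJ: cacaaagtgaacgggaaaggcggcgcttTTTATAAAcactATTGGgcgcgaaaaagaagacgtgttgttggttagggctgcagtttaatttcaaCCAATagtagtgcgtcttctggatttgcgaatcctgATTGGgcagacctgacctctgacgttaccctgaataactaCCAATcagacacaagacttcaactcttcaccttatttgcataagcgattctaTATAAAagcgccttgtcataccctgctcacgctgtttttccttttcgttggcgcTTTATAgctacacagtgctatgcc

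OR2B6, an olfactory receptor gene, had the largest rise of any called gene and lies in the same chromosome region, at chr6:27957241-27958182, beyond HIST1H2BO at chr6:27893425-27893891. It went from 0.786, 0.915 and 0.907 CPM in shCtrl to 3.27, 2.67 and 4.43 in shWDR5 (log2 fold change 1.99, SE 0.23, adjusted p = 2.4e-05, edgeR). Its counts were low, at 18 to 122, and the groups did not overlap, which the choice of the largest rises required. Of the other genes with the largest rises, RELN, on chromosome 7, encodes a secreted glycoprotein that guides neurons and rose from 11.4, 7.21 and 9.47 to 28.3, 17.9 and 17.9 CPM (1.19, SE 0.20), with replicate 1 the highest of both groups. SNCAIP, which binds alpha-synuclein, rose from 3.19, 4.05 and 3.43 to 8.40, 8.37 and 7.2 (1.17, SE 0.13). Among the 10 tested variant histone genes, which are expressed outside S phase, 1 was higher and 1 lower. H3F3B (histone H3.3) rose by 0.51 on the log2 scale (SE 0.11), and H1F0 (histone H1.0) fell by 0.50 (SE 0.10). Other genes of S phase and of mitosis are read against the 5.42% higher and 10.7% lower of all tested genes. Of 40 DNA replication genes 1 was higher (2.5%) and 2 were lower (5%), of 40 mitosis genes 2 (5%) and 0, and the medians were 0.03 and 0.11. With GC offsets 6 were higher in each list (15.5% of all genes).

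Cytoplasmic ribosomal protein genes changed in both directions. This list was reported by the study from these samples, so its direction is not independent evidence. Of 79 genes, all tested, 33 were lower and 12 higher, where 10.7% and 5.42% of all tested genes were. The median log2 fold change was -0.25. For the large subunit 21 of 47 were lower and 6 higher with a median of -0.45, and for the small subunit 12 of 32 were lower and 6 higher with a median of 0.22. The groups did not overlap in 32 of the 33 lower and 8 of the 12 higher genes. Among all called genes this held for 1272 of 1297 lower and 609 of 655 higher ones. The number of lower genes held between 23 and 38 when a library was left out. The number of higher genes did not hold. It was 3 without shCtrl replicate 1 or without shWDR5 replicate 3, 7 without shCtrl replicate 2 or without shWDR5 replicate 2, 6 without shCtrl replicate 3 and 19 without shWDR5 replicate 1. With GC content removed, 35 were lower and 22 higher, where 12.7% and 15.5% of all genes were. The summed level of the 79 genes did not separate the groups, with 50996, 62002 and 55253 CPM in shCtrl and 42281, 54675 and 66320 in shWDR5.

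Among the large subunit genes, RPL34 fell from 228, 256 and 249 CPM to 94.3, 116 and 163 (log2 fold change -0.98, SE 0.14, adjusted p = 2.1e-04, edgeR). RPL6 went from 1593, 1747 and 1687 to 761, 964 and 1160 CPM (-0.80, SE 0.12), and RPL5 from 1236, 1402 and 1463 to 711, 898 and 1026 (-0.64, SE 0.11). In each of them shWDR5 replicate 1 was the lowest and replicate 3 the highest of the knockdown libraries. The largest fall was that of RPL26, from 44.3, 45.8 and 45.7 to 22, 13.8 and 13.0 CPM (-1.47, SE 0.25). Small subunit genes fell too. RPS24 went from 1055, 1329 and 1129 to 498, 618 and 734 CPM (-0.93, SE 0.13), RPS3A from 513, 572 and 542 to 276, 297 and 349 (-0.82, SE 0.10) and RPS18 from 2076, 2322 and 1961 to 1099, 1268 and 1586 (-0.69, SE 0.12). Ribosomal protein genes have many processed pseudogenes. The share of 50-base stretches found in other genes was 2.68% for RPL34, 4.36% for RPS24, 11.8% for RPS18, 17.7% for RPL5, 18.1% for RPL6, 20% for RPS3A and 28.6% for RPL26. Of the abundant genes named above, it was 49% for RPL7A, 23.1% for EEF1A1, 20.1% for NPM1 and 18.8% for HSP90AB1.

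The ribosomal protein genes that rose did so by less. RPL14 went from 940, 1046 and 1101 to 1196, 1568 and 1672 CPM (log2 fold change 0.52, SE 0.11, adjusted p = 0.0028, edgeR). RPLP0, of the ribosomal stalk, went from 3115, 3525 and 3338 to 3830, 5189 and 5305 (0.52, SE 0.11). The groups of neither overlapped, and shWDR5 replicate 1 was the closest to the controls. RPL21 rose by 0.59 (SE 0.13), with 58.1% of its stretches shared with other genes. RPS25, RPS13 and RPSA were called too, with log2 fold changes from 0.48 to 0.55, but in only 2 or 3 of the 6 fits that left out a library. For RPS25 the adjusted p rose to 0.10 without shWDR5 replicate 3 (edgeR). The shared part was 5.98% for RPL14, 22.8% for RPLP0, 12.4% for RPS25, 5.63% for RPS13 and 22.4% for RPSA. The 75 tested genes for mitochondrial ribosomal proteins, whose products form a separate ribosome, gave 0 higher and 1 lower (MRPS17, -0.55, SE 0.14). Of all tested genes 5.42% were higher and 10.7% lower. The list gave 6 and 2 with the replicate block, where 11.3% and 15% of all genes were called. It gave 10 and 1 with GC offsets, where 15.5% and 12.7% were. Without shWDR5 replicate 1 it gave 10 and 1, where 773 and 1206 of all 12095 genes were called.

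**Figure D3:**
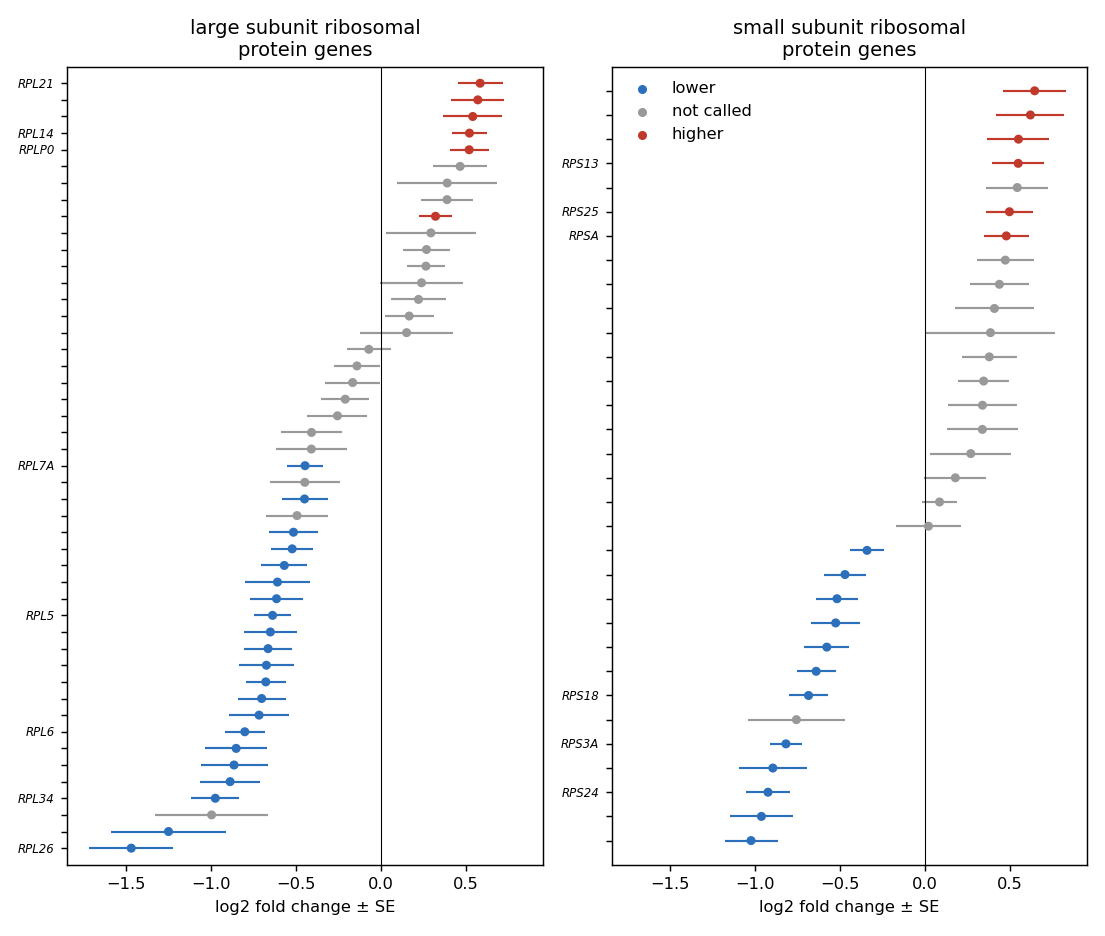
Log2 fold change of shWDR5 over shCtrl in BoM, with its standard error as a bar, for the 47 large and 32 small subunit ribosomal protein genes in order of their change, coloured by call, with names for those described in the text. The 33 genes called lower spread from RPL26 at -1.47 upward, and the 12 called higher stay below 0.7.

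Among genes for making ribosomes and for using them, more were higher than lower, where 5.42% of all tested genes were higher and 10.7% lower. Of 49 tested ribosome biogenesis genes, 12 were higher (24.5%) and 0 lower, 47 had a positive log2 fold change, and the median was 0.26. TAF1D, a factor of RNA polymerase I, rose from 122, 136 and 149 to 188, 242 and 299 CPM (0.84, SE 0.16, adjusted p = 0.0018, edgeR). GNL3, which encodes nucleostemin, rose from 258, 296 and 305 to 344, 445 and 473 (0.56, SE 0.11). The groups of both were separate. PNO1 and UTP4, of small subunit processing, rose by 0.52 and 0.48. The number called was 8 to 11 when a library was left out, other than shWDR5 replicate 1, without which it was 20. It was 22 with the replicate block and 23 with GC offsets, fits that called 11.3% and 15.5% of all genes higher. Of 46 translation factor genes, 8 were higher (17.4%) and 1 lower (2.17%), with 18 higher under GC offsets, 4 higher without shCtrl replicate 1 and 5 without shCtrl replicate 2 or shWDR5 replicate 2. EIF4A2, an RNA helicase of initiation, rose from 654, 655 and 740 to 924, 957 and 1149 CPM (0.57, SE 0.12), and PABPC1, the poly(A)-binding protein, from 1635, 1678 and 1914 to 2374, 2699 and 2142 (0.46, SE 0.09). EIF4G3, a scaffold of initiation, fell by 0.51 (SE 0.09).

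Host genes of small nucleolar RNAs, which guide the modification of ribosomal RNA, changed in both directions. Of 20 tested, 7 were higher (35%) and 2 lower (10%, close to the 10.7% of all genes), and the median log2 fold change was 0.42. SNHG1 rose from 264, 315 and 337 to 394, 498 and 698 CPM (0.80, SE 0.15, adjusted p = 0.0018, edgeR), and SNHG29 by 0.42 (SE 0.10). SNHG15 fell from 63.6, 73.2 and 68.9 to 28.6, 32.5 and 49.8 (-0.89, SE 0.16). In SNHG1 and SNHG15 alike shWDR5 replicate 3 was the highest knockdown library. The other 5 higher genes were called in 1 or 2 of the 6 fits that left out a library, and the number of higher genes was 2 without shCtrl replicate 1 or shWDR5 replicate 3, 3 without shCtrl replicate 2, 4 without shWDR5 replicate 2 and 11 without shWDR5 replicate 1.

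Among the partners of WDR5, KMT2 complex genes were called about as often as other genes. MYC network genes were more often higher with all libraries. Of 20 KMT2 complex genes other than WDR5, 1 was higher (5%) and 2 were lower (10%), against 5.42% and 10.7% of all tested genes, with a median of 0.03. With GC offsets 3 were higher, where 15.5% of all genes were. MEN1, the gene for menin, fell from 53.4, 67.6 and 57.2 to 34, 38.8 and 40.3 CPM (log2 fold change -0.66, SE 0.14, adjusted p = 0.0049, edgeR). PAXIP1, a subunit of the KMT2C and KMT2D complexes, was lower by 0.31 (SE 0.08) and KDM6A, the H3K27 demethylase of the same complexes, higher by 0.35 (SE 0.09), each in 5 of the 6 fits that left out a library. The core subunits RBBP5, ASH2L and DPY30 did not pass, with log2 fold changes of -0.02, 0.14 and 0.14 (SE 0.16, 0.09 and 0.15). The count of DPY30 is uncertain, since 91% of its stretches are shared with other genes. The sign for RBBP5 depended on the filter, and that for DPY30 turned to -0.07 without shWDR5 replicate 3. KMT2A had 183, 148 and 175 CPM in shCtrl and 340, 184 and 186 in shWDR5, where replicate 1 stood alone. Its adjusted p was 0.11, but 0.018 with the replicate block (edgeR), and 21.4% of its stretches are shared with other genes. In the NSL and ATAC complexes 1 of 17 genes was higher (KANSL2, 0.29) and 1 lower (KAT14, -0.31), or 5.88% each, and neither held in more than 2 of the 6 fits. The numbers were 4 and 1 with the block, where 11.3% of all genes were higher and 15% lower. They were 7 and 1 with GC offsets, where 15.5% and 12.7% of all genes were. Of 19 tested MYC network genes, 5 were higher (26.3%) and 0 lower. MLX, a partner of the MYC network proteins, rose from 114, 115 and 112 to 142, 151 and 152 CPM (0.38, SE 0.07, adjusted p = 0.0017, edgeR). The other 4 were ODC1, PPAT, LDHA and CDK4, with 0.29 to 0.47, which were called in 5, 5, 3 and 1 of the 6 fits that left out a library. The number was 3 without shCtrl replicate 1 or shWDR5 replicate 2 and 1 without shCtrl replicate 2.

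Genes of bone metastasis were examined because BoM was selected for growth in bone. Of 28 tested members of a list of osteolysis and bone metastasis genes, 7 were higher (25%, against 5.42% of all tested genes) and 1 lower (3.57%, against 10.7%), and the median was 0.09. RUNX2, the master regulator of bone formation, rose from 33.6, 25.8 and 31.1 to 49.6, 41.5 and 40.4 CPM (log2 fold change 0.54, SE 0.11, adjusted p = 0.0029, edgeR). SRGN, the proteoglycan serglycin, rose from 368, 299 and 391 to 479, 524 and 555 (0.56, SE 0.12). JAG1, a Notch ligand, and FGF5, a growth factor, were higher by 0.57 and 0.53, each with 5 of 6 calls. IL11, a cytokine that stimulates osteoclasts, went from 206, 230 and 192 to 124, 160 and 149 CPM (-0.54, SE 0.14), and was called in 4 of 6 fits. Without shCtrl replicate 2 the list had 2 higher genes, where 247 of all 12095 tested genes were. With the replicate block, where 11.3% of all genes were higher and 15% lower, 9 were higher and 7 lower. In the TGF-beta pathway 4 of 29 genes were higher (13.8%) and 2 lower (6.9%). With GC offsets 6 were higher and 1 lower, where 15.5% and 12.7% of all genes were. BAMBI, a decoy receptor, was higher by 0.57 (SE 0.13), and LTBP3, which binds latent TGF-beta, lower by 1.71 (SE 0.30). Without shCtrl replicate 2 only 1 gene of that pathway was higher, and without shCtrl replicate 1, shWDR5 replicate 2 or shWDR5 replicate 3 only LTBP3 was lower.

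Several epithelial genes were lower, and no mesenchymal gene passed. Of 17 tested epithelial junction and keratin genes, 7 were lower (41.2%, against 10.7% of all tested genes) and 1 higher (5.88%), and the median was -0.51. With GC offsets 7 were lower again, where 12.7% of all genes were, with a median of -0.32. F11R, a tight junction adhesion molecule, went from 7.30, 8.68 and 9.77 to 3.54, 2.56 and 3.43 CPM (log2 fold change -1.42, SE 0.16, adjusted p = 1.4e-05, edgeR), although 37.2% of its stretches are shared with other genes. CLDN7, a claudin, went from 10.4, 13.5 and 11.5 to 4.75, 4.69 and 5.58 (-1.24, SE 0.14). JUP, the gene for plakoglobin, went from 9.96, 19.1 and 10.2 to 4.13, 3.95 and 4.35 (-1.67, SE 0.31), with shCtrl replicate 2 well above the other controls. EPCAM fell by 0.60 (SE 0.12). Without shCtrl replicate 2 there were 4 lower genes. Of 13 mesenchymal genes 0 were called in either direction, with 2 higher under the block, and VIM had a log2 fold change of 0.16 (SE 0.10). Of 35 collagen, laminin and integrin genes, 6 were lower (17.1%) and 0 higher, with 2 higher under GC offsets, where 15.5% of all genes were. LAMB1 fell from 83.6, 84.5 and 87.2 to 62.1, 61.9 and 55.6 CPM (-0.51, SE 0.07), COL1A1 from 4.87, 7.74 and 4.99 to 1.77, 2.25 and 2.00 (-1.57, SE 0.33), and the integrin genes ITGB5 and ITGA5 by 0.54 and 0.51.

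Extracellular proteases changed singly. Of 28 tested protease and inhibitor genes 4 were higher (14.3%, against 5.42% of all tested genes) and 3 lower (10.7%, the share of all genes). PLAU, the urokinase plasminogen activator, fell from 158, 153 and 150 to 75.8, 90.8 and 93.2 CPM (-0.83, SE 0.09, adjusted p = 7.8e-06, edgeR), whereas its receptor gene PLAUR rose from 91.0, 104 and 103 to 124, 147 and 162 (0.54, SE 0.13). TIMP4, a metalloproteinase inhibitor, fell by 1.11 (SE 0.19) and the lysosomal protease gene CTSL by 0.52 (SE 0.10). ADAMTS6 and the protease inhibitor gene SERPINE2 rose by 0.64 (SE 0.15) and 0.39 (SE 0.09).

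Among interferon-stimulated genes 6 of 25 were lower (24%, against 10.7% of all tested genes) and 0 higher, and between 5 and 6 were lower when a library was left out. With GC offsets 8 were lower and 4 higher, where 12.7% and 15.5% of all genes were. OAS1, OAS3 and OASL belong to a family of sensors of double-stranded RNA and their relatives. OAS1 went from 2.61, 2.69 and 3.53 to 1.26, 1.28 and 1.08 CPM (-1.26, SE 0.21, adjusted p = 5.3e-04, edgeR), OAS3 from 62.9, 50 and 58.2 to 43.4, 33.4 and 28.7 (-0.70, SE 0.13) and OASL from 19.9, 12.7 and 11.9 to 8.83, 6.28 and 6.74 (-1.03, SE 0.18). The antiviral GTPase gene MX1 fell from 11.6, 11 and 11.4 to 7.06, 6.39 and 7.66 (-0.69, SE 0.12). The other tested members, 19 of them, did not pass in either direction. Of 17 genes of MHC class I presentation 3 were higher (17.6%) and 1 lower (5.88%), with 6 and 1 under GC offsets. The lower gene, the class I gene HLA-F, went from 1.52, 1.73 and 1.06 to 0.349, 0.349 and 0.269 CPM (-2.17, SE 0.27), and B2M, the light chain of class I receptors, was higher by 0.48 (SE 0.13) with all libraries and in 4 of the 6 fits that left out 1. The number of higher genes in that list was 2 without shCtrl replicate 1 or 3, 1 without shWDR5 replicate 1 or 2 and 0 without shCtrl replicate 2 or shWDR5 replicate 3.

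Cholesterol and fatty acid synthesis genes leaned one way. Of 34 genes, all tested, 6 were lower (17.6%, against 10.7% of all tested genes) and 0 higher, 29 had a negative log2 fold change, and the median was -0.29. With GC offsets 8 were lower, where 12.7% of all genes were, with a median of -0.18. EBP, a sterol isomerase, went from 17, 19.6 and 16.9 to 10.0, 10.2 and 12.2 CPM (-0.73, SE 0.15, adjusted p = 0.0027, edgeR), with 55.1% of its stretches shared with other genes. With the replicate block 14 genes were lower, where 15% of all genes were, and without shCtrl replicate 2 or shWDR5 replicate 2 there were 3. Of 36 glycolysis and hypoxia genes 6 were higher (16.7%) and 5 lower (13.9%). With GC offsets 11 were higher and 5 lower, where 15.5% and 12.7% of all genes were. CA12, a membrane carbonic anhydrase, fell by 0.77 (SE 0.12), and P4HA2, which hydroxylates collagen, by 0.66 (SE 0.11), while KDM3A, a histone demethylase, rose by 0.33 (SE 0.09). Without shCtrl replicate 2 the numbers were 2 and 3. Without shWDR5 replicate 2 there were 2 higher genes, and without shCtrl replicate 1 there were 3.

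Chaperones changed gene by gene. Of 29 heat shock protein and chaperonin genes 5 were higher (17.2%, against 5.42% of all tested genes) and 4 lower (13.8%, against 10.7%). With GC offsets 12 were higher and 4 lower, where 15.5% and 12.7% of all genes were. The CCT chaperonin is a ring of related subunits that folds actin and tubulin. Its genes CCT7 and CCT4 fell, CCT7 from 746, 782 and 824 to 358, 490 and 400 CPM (-0.91, SE 0.10, adjusted p = 1.8e-05, edgeR) and CCT4 from 466, 457 and 514 to 287, 325 and 352 (-0.57, SE 0.09). TCP1, of the same ring, was higher by 0.31 (SE 0.08) with all libraries and in 2 of the 6 fits that left out 1. HSPA9, a mitochondrial chaperone gene, rose by 0.41 (SE 0.08). The number of higher genes was 2 without shCtrl replicate 1 or 2 or without shWDR5 replicate 2 or 3. Of 46 proteasome genes 4 were higher (8.7%) and 0 lower. With the block or with GC offsets 9 were higher, where 11.3% and 15.5% of all genes were. The number was 12 without shWDR5 replicate 1 and 1 without shCtrl replicate 1 or shWDR5 replicate 2 or 3. It was 2 without shCtrl replicate 2 or 3.

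The cell cycle and signalling lists differed in how often their members were called. Of 20 genes of G1 cyclins, CDKs and their inhibitors, 1 was higher (5%) and 2 lower (10%), close to the 5.42% and 10.7% of all tested genes. Counts with GC offsets are read against the 15.5% higher and 12.7% lower of all genes in that fit. E2F2, a transcription factor of S-phase genes, went from 18.6, 13.4 and 14.5 to 5.02, 4.96 and 4.39 CPM (-1.69, SE 0.19, adjusted p = 1.3e-05, edgeR), and CDKN1A, the CDK inhibitor p21, from 27.6, 29.4 and 27.8 to 21.8, 17.9 and 16.9 (-0.58, SE 0.12). Of 24 p53 target genes, CDKN1A among them, 2 were higher and 3 lower (8.33% and 12.5%), with 6 and 3 under GC offsets, and without shCtrl replicate 2 there was 1 of each. Of 19 MAPK feedback and ETV genes 4 were higher (21.1%) and 0 lower, with 7 higher under GC offsets. EPHA4, a receptor tyrosine kinase, rose from 17.8, 10.0 and 14.4 to 34.4, 23.1 and 24 CPM (0.95, SE 0.18), and the other 3, ETV1, ETV5 and SPRY4, were called in 2 to 4 of the 6 fits. That number fell to 1 without shCtrl replicate 2 or shWDR5 replicate 1 and to 2 without shWDR5 replicate 2. In the mTOR pathway 1 of 30 genes was higher and 2 lower, among them RRAGD, a lysosomal GTPase gene (-0.63, SE 0.12). The remaining lists had 0 to 2 genes in each direction, and GC offsets gave them 0 to 8 higher and 1 or 2 lower. They were AP-1 genes (1 higher and 1 lower of 12), cytokines and chemokines (0 and 1 of 21, 2 and 5 with the block), ATF4 and unfolded protein response genes (2 and 1 of 31), oxidative phosphorylation genes (2 and 2 of 75) and aminoacyl-tRNA synthetase genes (1 and 0 of 23). These numbers moved by 1 or 2 genes when a library was left out, except that 10 oxidative phosphorylation genes were higher without shWDR5 replicate 1 and 4 were lower without shWDR5 replicate 3. Without shWDR5 replicate 1, 5 of the 40 mitosis genes were higher as well.

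**Figure D4:**
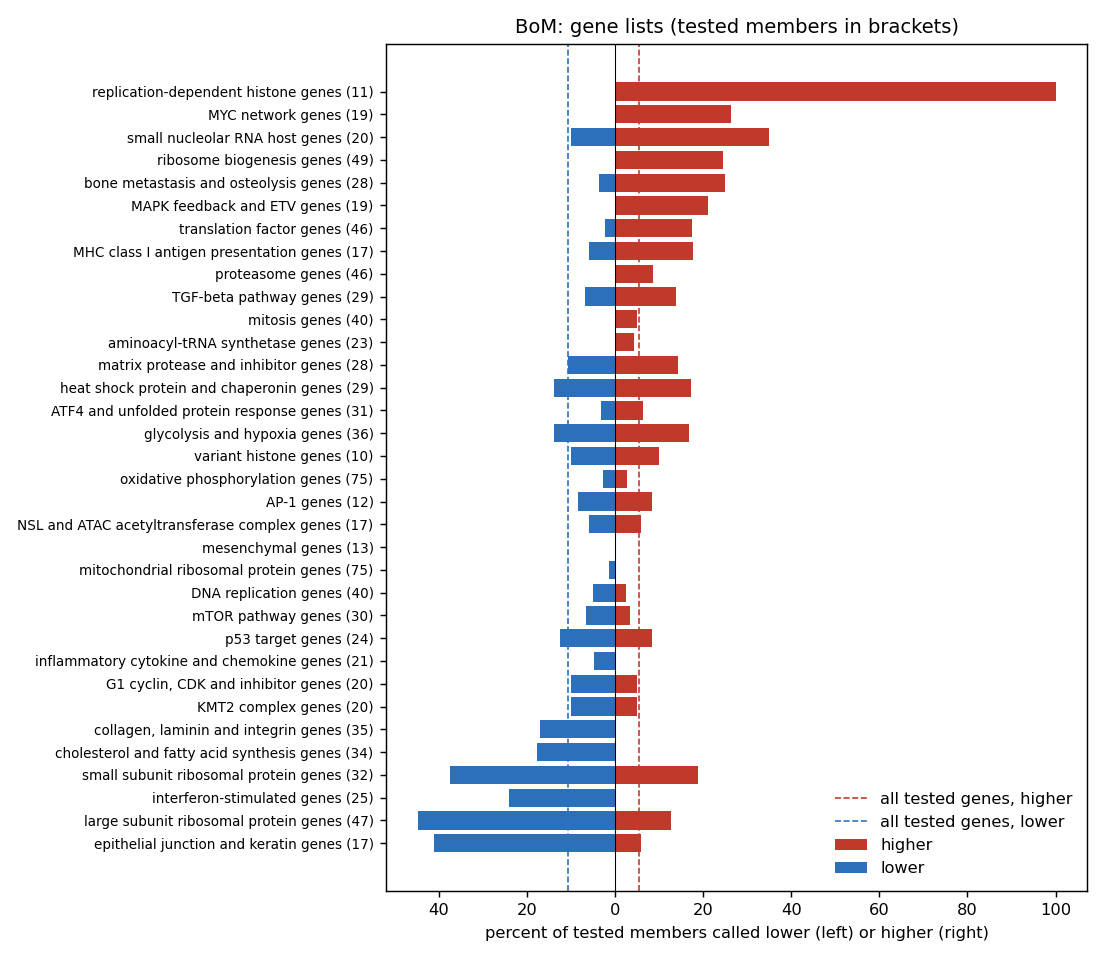
Percent of the tested members of each gene list that were called lower (left, blue) or higher (right, red) in BoM, with the number tested in brackets and dashed lines at 10.7% and 5.42% for all tested genes. The 11 replication-dependent histone genes reach 100% higher, and the epithelial and large subunit ribosomal protein genes have the largest shares lower.

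The last question was whether BoM responded differently from LM2 and BrM3, which share no control samples with it. Of the genes called in BoM, 633 of the 655 higher and 1235 of the 1297 lower ones had the same sign in LM2, and 643 and 1282 in BrM3. Their median log2 fold changes were 0.44 in BoM, 0.26 in LM2 and 0.30 in BrM3 for the higher genes and -0.68, -0.41 and -0.54 for the lower ones. The genes were chosen by their change in BoM, which fixes the larger medians there. In the test of the difference itself, 0 of 12095 genes (0%) differed between BoM and LM2, 1 (0.00827%) between BoM and BrM3 and 0 (0%) between BoM and the mean of both, at an adjusted p under 0.05 from edgeR's quasi-likelihood test. At an unadjusted p under 0.05 there were 627, 351 and 535. For the difference from the mean DESeq2 called 26 genes and edgeR without a filter 13.

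The 5 genes with the smallest p for the difference from the mean all fell further in BoM. NYNRIN had log2 fold changes of -2.83 in BoM, -1.35 in LM2 and -1.14 in BrM3. Its level in BrM3 was higher, with 11.3 CPM in each shCtrl library against 4.85, 5.15 and 5.30 in shWDR5, while LM2 had 0.491, 0.661 and 0.701 against 0.298, 0.227 and 0.225. The difference was -1.59 (SE 0.24, adjusted p = 0.056, edgeR, and 0.009 by DESeq2), with 0.045 to 0.17 when a BoM library was left out. DNMT3A, a DNA methyltransferase that sets new methylation marks, fell in BoM from 12.9, 12.7 and 10.8 CPM to 3.89, 3.68 and 3.04 (log2 fold change -1.78, SE 0.12). LM2 went from 12.1, 13.8 and 13.7 to 7.55, 7.06 and 7.77, and BrM3 from 21.9, 23.9 and 20.9 to 11.4, 10.5 and 11.6. At similar control levels in BoM and LM2, the knockdown libraries of BoM were lower, and the difference from the mean was -0.86 (SE 0.14, adjusted p = 0.065, edgeR, and 5.9e-04 by DESeq2). DOK4, a docking protein of receptor kinases, AIF1L, an actin-binding protein, and BEX2 differed by -1.19 (SE 0.23), -0.66 (SE 0.13) and -0.93 (SE 0.19), each with an adjusted p of 0.21 in edgeR and 0.0056, 0.0056 and 0.025 by DESeq2. AIF1L went from 30.7, 33.8 and 28.4 to 14.6, 16.2 and 12.7 CPM in BoM and from 39.0, 39.7 and 34 to 30.9, 34.8 and 34 in LM2. Its LM2 groups met, and its BoM groups did not.

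**Figure D5:**
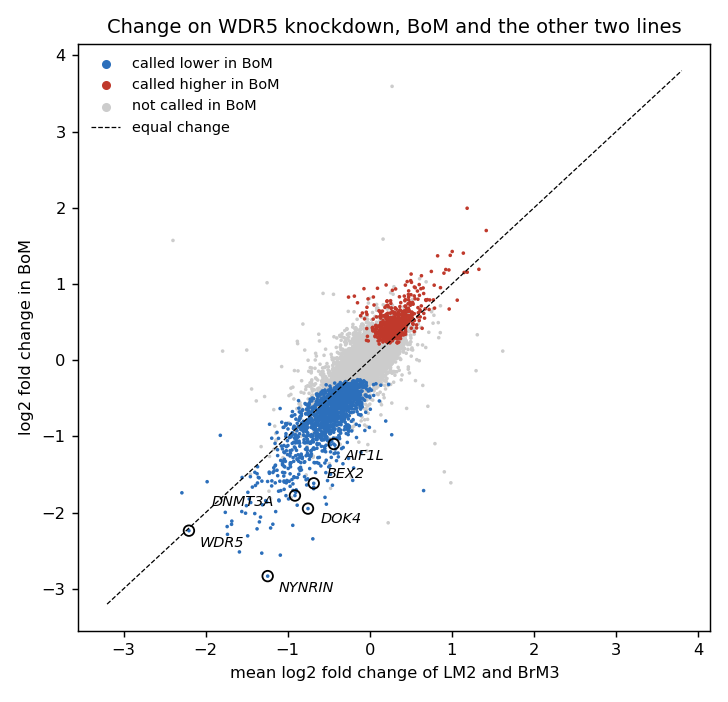
Log2 fold change on WDR5 knockdown in BoM against the mean of LM2 and BrM3 for the 12095 tested genes, coloured by the BoM call, with a dashed line where both are equal. NYNRIN, DNMT3A, DOK4, AIF1L and BEX2 (circles) lie below the line, and WDR5 lies on it.

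The lists were also set beside each other across the lines. The histone genes had a median log2 fold change of 1.19 in BoM, 1.16 in LM2 and 0.87 in BrM3. For the epithelial genes it was -0.51, -0.04 and -0.27, and for the cholesterol and fatty acid synthesis genes -0.29, -0.11 and -0.12. None of the epithelial or cholesterol genes named above passed the test of the difference between BoM and the mean of the other lines, so a response particular to BoM was not shown for them. LAMB1 had log2 fold changes of -0.51 in BoM, 0.07 in LM2 and -0.49 in BrM3, and CTSL of -0.52, 0.05 and -0.33, at adjusted p-values of 0.59 and 0.61 for the difference from the mean (edgeR).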

How the data were processed

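The authors aligned paired-end reads of TruSeq stranded mRNA libraries to hg38 with STAR 2.7.0 and deposited a table of raw, unnormalized counts for 58815 genes (CASAVA 1.8.2 is also named in the submitters' processing notes). The strand setting of the counting was not given in the sources used here, so reads of overlapping or antisense genes could not be told apart. A second deposited table holds the authors' log2 fold changes and adjusted p-values from DESeq2 and was not used. Libraries were assigned by their titles, since the labels of the source material name other lines for most samples. The number of unused per-sample columns was 0. The table has 0 spike-in rows, so spike-in scaling was not used here.

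Genes were kept by the criterion of HTSFilter, recomputed. Over 100 thresholds from 1 to 200 on a gene's highest TMM-normalised count, the Jaccard index between replicates was highest (0.97) at 145, which left 12095 genes. Counts of all 18 libraries in 6 groups were fitted by edgeR 4.0.16 (quasi-likelihood, 12 residual degrees of freedom, R 4.3.3, limma 3.58.1). P-values were adjusted over all tested genes by the Benjamini-Hochberg procedure, and genes under 0.05 were called. SEs were derived from the F statistic. CPM were computed with TMM-scaled library sizes. The script was tested on simulated data. No library repeated another, since the chi-square per gene between replicates of BoM was 17.5 to 61.1. Counts on genes ranged from 20064987 to 38697099 per BoM library, and precision is given as SEs over libraries.

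Same-numbered shCtrl and shWDR5 libraries of BoM deviated together from their group means, with correlations of 0.564, 0.322 and 0.144 across genes. The numbers of the titles were therefore taken as pairs in the fit with the block. The main fit, from which the calls come, did not use the pairs. BoM shCtrl replicate 2 and shWDR5 replicate 3 correlated at 0.211. The replicate number was a block in LM2 and BrM3 too, where LM2 replicates 2 had 0.0248 and BrM3 replicates 3 had -0.177. The fit with the block is given where it changed the call of a named gene, and for part of the counts it moved by over 1.5 times. Among those not given above were the higher genes of oxidative phosphorylation (6), mitosis (5), p53 targets (5), the MYC network (8) and KMT2 complexes (3). With the block 11.3% of all genes were higher. Other alternatives were DESeq2 1.42.0, other size factors, other filters, BoM fitted alone, loess offsets for GC content (span 0.5) and leaving out each BoM library. Offsets for transcript length were added after seeing the data.

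Members and gene lists were chosen with earlier results of these data known. Named genes were WDR5, WDR5B and the KMT2 and NSL complex genes. They were also the 10 largest rises and the 10 largest falls without overlap of groups, the 5 most abundant called genes per direction, and the 5 smallest p per direction at 10 CPM or more. Each list added up to 4 called members per direction, and the difference from the other lines added 5 genes. A few genes selected by these rules are not reported here. Genes outside this rule are marked as named after their values were seen, apart from cell type markers. Coordinates, hairpin matches and stem-loops come from GENCODE on GRCh38, and promoter sequences from RefSeq (GRCh38.p14). Of the 12095 tested genes, 9532 matched a promoter.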

Additional observations from a re-analysis of the deposited data

Results flagged for a closer look

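The change of NYNRIN in BoM differed from that in BrM3 by -1.69 on the log2 scale (SE 0.24, adjusted p = 0.027, edgeR's quasi-likelihood test of the difference with Benjamini-Hochberg adjustment), the only gene of 12095 to pass in this comparison. All 3 shWDR5 libraries were below all 3 shCtrl libraries in both lines, at 0.271 to 0.456 against 2.38 to 2.90 CPM in BoM and 4.85 to 5.30 against 11.3 CPM in BrM3. The shWDR5 libraries of BoM had as few as 7 counts.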

How the results depend on the processing

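The number of higher genes (655) was 1075 with DESeq2, 195 with BoM fitted alone, 1368 with the replicate block, 1878 with GC offsets, 2866 with GC offsets and the block, 1443 with length offsets, 2296 with length offsets and the block, and 247 (without BoM shCtrl replicate 2) to 773 (without BoM shWDR5 replicate 1) when 1 BoM library was left out. The number of lower genes (1297) was 707 with BoM alone and 1954 with GC offsets and the block. Of the ribosomal protein genes, 20 were lower with BoM alone, and the 12 higher ones became 24 without a filter, 3 with BoM alone, 22 with GC offsets, 26 with GC offsets and the block, 20 with length offsets, 24 with length offsets and the block, and 3 to 19 with 1 library left out, the latter without BoM shWDR5 replicate 1. The difference of BoM from the mean of the other lines gave 26 genes with DESeq2, 13 without a filter, 5 with GC offsets, 11 with GC offsets and the block, and 0 to 1 with 1 library left out (1 without BoM shWDR5 replicate 1). It was not tested with BoM alone. WDR5 kept its fall in all alternatives. The log2 fold change of RBBP5 (-0.02, not called) was 0.0008 with edgeR's filterByExpr, 0.0377 with length offsets, 0.0258 with length offsets and the block, and -0.2292 to 0.0936 with 1 library left out, and that of DPY30 (0.14, not called) was -0.0689 to 0.2839. Of 170 named genes the block changed 1 call (KMT2A), DESeq2 changed 0 and BoM alone lost 66. Over the 6 fits that left out a library, 203 of 1020 values of named genes lost their call and 4 changed sign, most often without BoM shCtrl replicate 2 (54 lost). The causes were not tested. Depth limits the lowest genes, where a library held under 10 counts.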

Other observations

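Of the genes called in BoM, 43 higher and 59 lower ones were long noncoding RNAs, and 593 and 1216 were protein-coding.

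CACGTG, the E-box bound by MYC and related factors, was searched on both strands in the same promoter windows of 300 bases. It was found in 12.1% of 529 promoters of higher genes, 8.23% of 1009 promoters of lower genes and 10.1% of 9532 promoters of tested genes. None of the 25 matched promoters of ribosomal protein genes that were lower and none of the 10 of those that were higher held it, against 3 of 28 among those not called. These are descriptions, and no match says only that these letters are not in the window. For some ribosomal protein genes the window did not seem to cover the main start. CCAAT was in 32.9% of the promoters of lower and 40.5% of those of higher genes, where 37.1% of tested genes had it.

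Transcript length moved with the libraries as well. The correlation of a library's deviation with length across genes was 0.053, -0.23 and -0.088 in shCtrl and 0.18, -0.095 and -0.20 in shWDR5, in which replicate 1 was the highest. Its part in the results was not tested beyond the length offsets.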
